A study of Mus musculus with 9 samples.

Results

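The clustered protocadherins are cell surface proteins of neurons that are encoded in 3 tandem arrays on mouse chromosome 18, named alpha, beta and gamma. They were taken from the deposited expression table by gene symbol, which gave 58 rows, with 14 alpha, 22 beta and 22 gamma genes. A member was kept where it had at least 0.5 FPKM (fragments scaled by transcript length and by library size) in at least 3 of 9 libraries. This left 53 members among the 14013 kept genes of the series, namely 12 alpha, 20 beta and 21 gamma genes. RNA came from the medial prefrontal cortex (mPFC), a cortical area studied in stress and depression. The running model, labelled as exercise, has 3 libraries, and the series description places running in mice exposed to chronic unpredictable stress. The CUS model, labelled as stressed, has 3 libraries, and the unstressed control has 3. Labels of all groups also carry a period of 4 weeks and the word week 8, without saying what each refers to, and no source used here gives the strain, age or running schedule.

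Each alpha or gamma gene has its own promoter and a large variable exon for the extracellular, transmembrane and proximal cytoplasmic parts of the protein, which is spliced to 3 constant exons shared by the whole array. Beta genes have a variable exon only. In most neurons a few promoters are chosen, apparently at random, with the help of the insulator protein CTCF and cohesin, while the so-called C-type genes at the end of the alpha and gamma arrays are used more uniformly. The proteins bind their own kind between cells, and this recognition is known for self-avoidance of dendrites and axons and for the survival of interneurons.

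That structure bears on every alpha and gamma value. In the GENCODE M21 annotation, which named 57 of the 58 members (all but Pcdha10), the constant exons held 2860 bases of each alpha transcript and 2119 or 2116 bases of each gamma transcript. This was 48.6% to 54.9% of a kept alpha transcript and 41.7% to 45.5% of a kept gamma transcript. A fragment from a constant exon does not name its member, so single values rest on an estimated split between members, and sums over an array are given beside them. Of all 100-base windows of a transcript, a median of 55.1% in the alpha array and 44.1% in the gamma array also occurred in another member, against 0.207% in the beta array. The highest beta share among kept members was 5.47%, in Pcdhb22. Single beta values therefore rest less on such a split. The labels do not say whether strand was kept, and without strand, reads of a member and of an antisense gene over it cannot be told apart.

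All 58 members have a position on chromosome 18 in the RefSeq table of GRCm38.p6, the assembly behind mm10. The alpha array runs from Pcdha1 (chromosome 18, start 36930285) to Pcdhac2 (start 37143678), whose transcripts end at 37187663. The beta array lies between the start of Pcdhb1 at 37264998 and the end of Pcdhb22 at 37521419. The gamma array runs from Pcdhga1 (start 37661775) to Pcdhgc5 (start 37819546, end 37841873).

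Replicate numbers only name libraries, in accession order, since the labels give no replicate numbers. The library titles each carry a number, without saying what it refers to. The libraries were similar in size, with FPKM sums between 370441 and 423257 and 17071 to 17280 genes above 0. CUS replicate 3 stood apart with the highest sum and a mean Pearson r with the other libraries of 0.987 across kept genes, where the other 8 had 0.990 to 0.993. Markers of excitatory neurons summed to between 3028 and 3378 FPKM and those of inhibitory neurons to between 666 and 867 FPKM. Markers of serotonergic neurons (Tph2, Slc6a4 and Fev) summed to at most 0.460 FPKM. Control replicate 3 had 1147 FPKM of oligodendrocyte markers and 216 FPKM of choroid plexus markers, against at most 684 and 40.9 FPKM in the other libraries. Whether libraries stand for different animals is not labelled, so p-values measure library spread only, and that spread may be technical. An exact permutation test of 3 against 3 libraries cannot go below p = 0.1, so sums are given without a test.

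**Figure D1:**
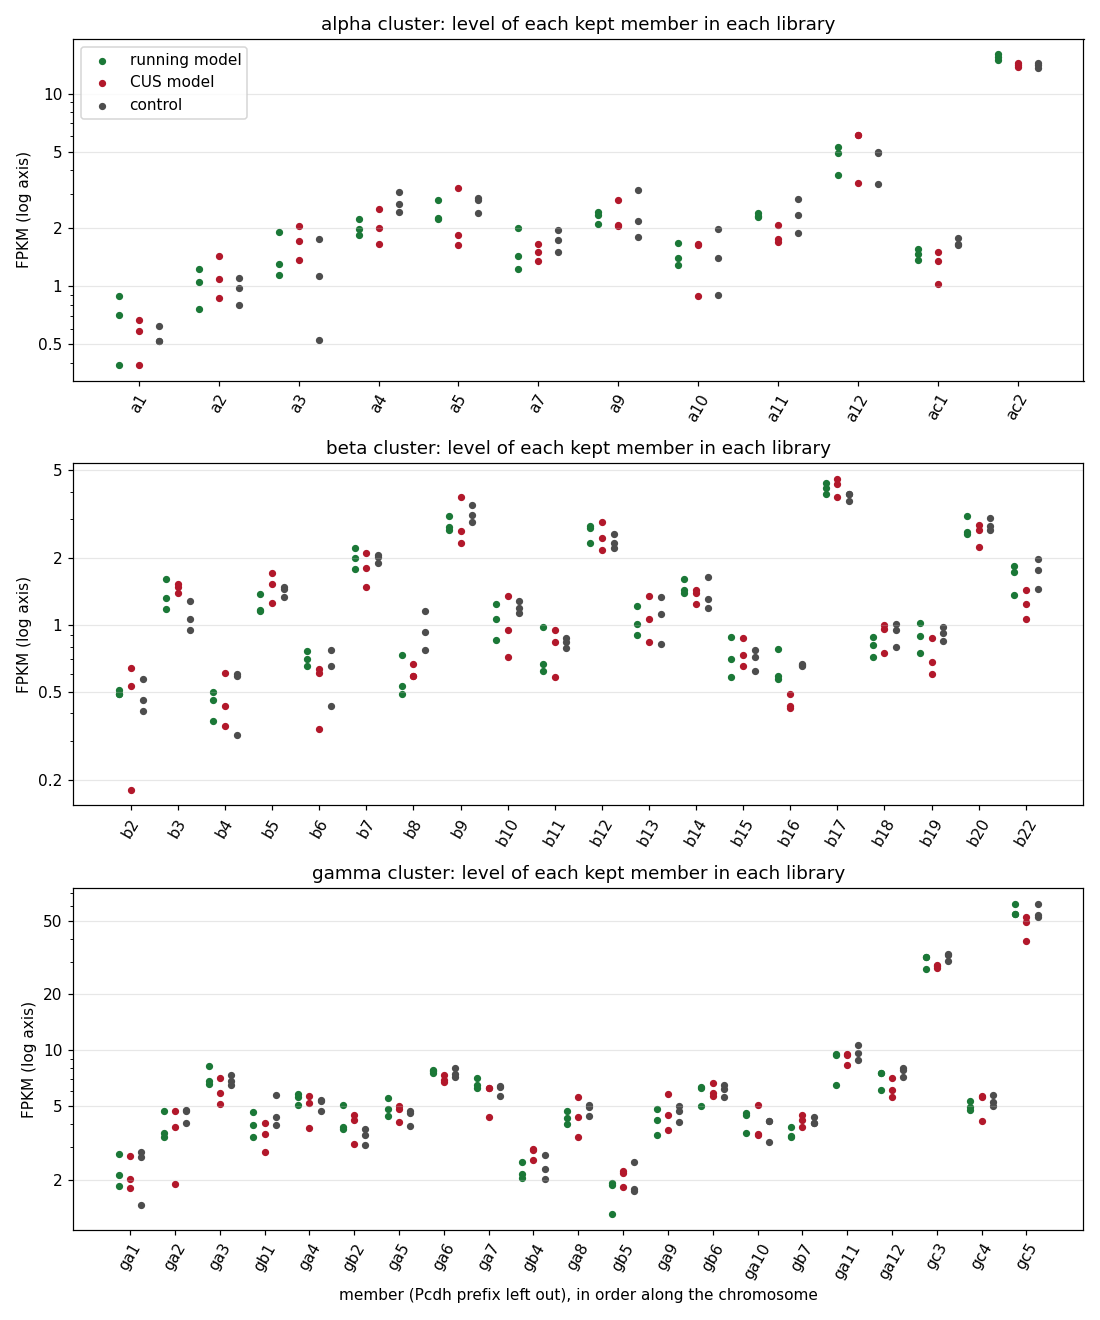
FPKM of the 53 kept members (log axis) in each library, in order along the chromosome, with 1 panel per array. Points are libraries, with running left, CUS in the middle and control right. Pcdhgc5, Pcdhgc3 and Pcdhac2 stand highest. Groups do not overlap for 8 members in CUS against control, 8 in running against CUS and 7 in running against control. Over all kept genes this holds for 19.7%, 24.9% and 22.4%.

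The gamma array gave most of the clustered protocadherin signal. Its 22 members summed to a mean of 176 FPKM over the 9 libraries, against 36.5 FPKM for the 14 alpha members and 28.6 FPKM for the 22 beta members. All values of level given here are FPKM, which is per length and so can be set side by side between genes. Levels in the gamma array spanned means from 1.93 FPKM in Pcdhgb5 to 53.1 FPKM in Pcdhgc5. In the alpha array they spanned 0.589 FPKM in Pcdha1 to 14.5 FPKM in Pcdhac2, and in the beta array 0.470 FPKM in Pcdhb4 to 4.07 FPKM in Pcdhb17.

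Among the 5 C-type genes, 3 had the highest means of all members and 2 did not stand out. Pcdhgc5 (gene ID 93708), which in the mouse is used mainly in the postnatal brain, had the highest mean of all members, followed by Pcdhgc3 (93706) with 30.3 FPKM, a member that binds Axin1 and is also used by glia. Next came Pcdhac2 (353237) with 14.5 FPKM, known for the spacing of serotonergic axons. Pcdhgc4 (93707), the member that interneuron survival depends on, had 5.16 FPKM, below several gamma A genes such as Pcdhga11. Pcdhac1 (353236) was the lowest C-type gene with 1.49 FPKM, below the alpha median of 1.89 FPKM. The ranges of these 5 genes over the 9 libraries did not overlap: 38.8 to 61.8 FPKM for Pcdhgc5, 27.5 to 32.9 for Pcdhgc3, 13.6 to 16.0 for Pcdhac2, 4.16 to 5.74 for Pcdhgc4 and 1.03 to 1.79 for Pcdhac1. The 3 gamma C-type genes together held a mean of 88.5 FPKM, the 12 gamma A genes 65.4 FPKM and the 7 gamma B genes 22.3 FPKM.

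Among gamma A genes means ran from 2.24 FPKM in Pcdhga1 to 9.09 FPKM in Pcdhga11, with a median of 4.91 FPKM, and among the 6 kept gamma B genes they ran from 1.93 to 6.01 FPKM. In the alpha array Pcdha12 (4.77 FPKM) and Pcdha5 (2.45 FPKM) followed Pcdhac2. In the beta array Pcdhb17 (4.07 FPKM), Pcdhb9 (2.99 FPKM) and Pcdhb20 (2.74 FPKM) were highest, against a median over kept beta members of 1.08 FPKM. Level tended to be higher toward the end of the array next to the constant exons, with a Spearman rho between order and mean level of 0.61 over 12 kept alpha members and 0.46 over 21 kept gamma members. In the beta array, which has no constant exons, rho was 0.34 over 20 kept members. Without the C-type genes rho was 0.62 over 10 alpha genes, 0.44 over the gamma A genes and 0.09 over the gamma B genes. These are descriptions over genes that share libraries and, in the alpha and gamma arrays, constant exons.

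The number of members that carried the signal was counted as an effective number, the exponential of the Shannon entropy of the shares, which equals the number of members if all are used evenly. It lay between 16.2 and 17.3 of 22 in the beta array, between 11.7 and 13.0 of 22 in the gamma array and between 7.62 and 8.50 of 14 in the alpha array. Pcdhac2 held 36.9% to 42.6% of the alpha sum, and Pcdhgc5 with Pcdhgc3 held 45.2% to 49.4% of the gamma sum. The gamma effective number was 11.8, 12.3 and 11.9 in running, 12.7, 12.9 and 13.0 in CUS, and 11.7, 12.7 and 12.2 in controls. Running values, 11.8 to 12.3, lay below the CUS values, 12.7 to 13.0, and the controls, 11.7 to 12.7, reached from below the running range to just under the CUS range. The beta effective number was 16.70 to 17.07 in running, 16.19 to 16.87 in CUS and 17.09 to 17.34 in controls, with every control above the other 6 libraries. In the alpha array it was 7.62 to 7.88 in running, 7.81 to 7.84 in CUS and 7.62 to 8.50 in controls, and the groups overlapped.

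Of the members outside the filter, 5 in all, Pcdhgb8 is a transcribed pseudogene in RefSeq and was listed at 0 in every library. Pcdhb1 reached at most 0.02 FPKM, and Pcdha6 lay between 0 and 0.17 FPKM. Just below the filter were Pcdhb21, with 0.280 to 0.640 FPKM, and Pcdha8, with 0.250 to 0.580 FPKM. Just inside it were Pcdhb2, with 0.180 to 0.640 FPKM, and Pcdhb4, with 0.320 to 0.610 FPKM. The low value of Pcdha6 has a counterpart elsewhere in the table. RefSeq lists Gm38666 (chromosome 18, 36967631 to 37841873), which begins within a few bases of Pcdha6 (start 36967625) and ends with the gamma array, and this row held 0.810 to 1.83 FPKM. Reads of these rows cannot be told apart over shared exons, and the symbol rule takes only Pcdha6. Gm37013 (start 36952648, next to Pcdha4) and Gm38667 (start 36973802, next to Pcdha7) also end with the gamma array. Gm37013 held 0 to 0.640 FPKM, and Gm38667 was listed at 0 in every library. None of these Gm rows enters the array sums.

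**Figure D2:**
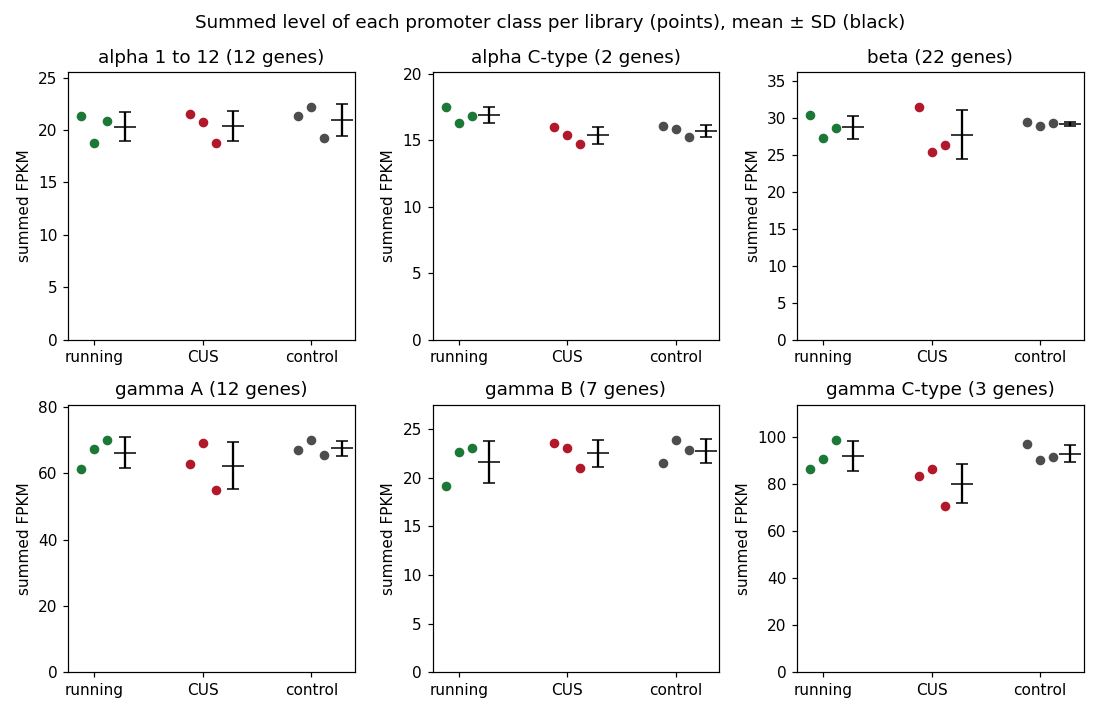
Summed FPKM of each promoter class in each library, from 0, for running, CUS and control (points), with mean and SD in black. The gamma C-type sum lies at 70.7 to 86.5 FPKM in CUS, below all controls, and the beta, alpha 1 to 12 and gamma B sums of the groups overlap.

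The first question was whether chronic stress changed the clustered protocadherins. None of the 53 members passed in CUS against control, where limma with Benjamini-Hochberg adjustment over all kept genes called 0.00714% of genes at an adjusted p under 0.05. The smallest adjusted p of a member was 0.289. Without adjustment 11 members had a limma p under 0.05, 1 higher and 10 lower in CUS, while 2058 genes or 14.7% of all kept genes did, 8.90% higher and 5.79% lower. Differences below 0 were seen in 8 of 12 alpha, 15 of 20 beta and 14 of 21 gamma members, with medians of -0.02, -0.07 and -0.08 on the log2(FPKM + 0.5) scale, against 0.02 over all kept genes. Without CUS replicate 3, 3 members were higher and 2 lower at a limma p under 0.05, where 10.2% of all kept genes had one, and the gamma median was close to 0. The split also moved with scaling, to 2 higher and 6 lower with quantile scaling, where 13.5% of all kept genes had a limma p under 0.05. With library quality weights it was 5 higher and 6 lower, where 21.4% of all kept genes had one. In both settings 11 beta members were above 0 and 9 below. On the log2(FPKM + 0.5) scale the change of a low gene is understated. Markers of oligodendrocyte precursors, 4 of 4 kept and 0 called, summed to 56.1 to 62.4 FPKM in CUS against 62.5 to 75.1 FPKM in controls. Those of oligodendrocytes, 7 of 7 kept and 0 called, summed to 462 to 684 FPKM in CUS against 613 to 1147 FPKM in controls, with a median log2 difference of -0.56. Their part in the results was not tested. Fewer cells that use a gene and less RNA per cell cannot be told apart in this tissue.

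The gamma sum was 170, 179 and 147 FPKM in CUS, against 186, 184 and 180 FPKM in controls. All CUS values lay below the control values, with means of 165 ± 16.6 and 183 ± 2.94 FPKM (SD, n = 3 each) and a log2 ratio of the means of -0.15. CUS replicate 3, the library that stood apart, was the lowest of the 9, and without it the ratio was -0.07. The gamma C-type sum was 83.6, 86.5 and 70.7 FPKM in CUS, against 97.0, 90.5 and 91.7 FPKM in controls. Sums of the gamma A genes were 62.7, 69.1 and 55.0 FPKM in CUS against 67.1, 70.0 and 65.5 FPKM in controls, and those of the gamma B genes were 23.5, 23.1 and 20.9 against 21.5, 23.9 and 22.8 FPKM, so that both overlapped.

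Pcdhgc5 had 49.3, 52.5 and 38.8 FPKM in CUS, against 61.4, 52.5 and 53.3 FPKM in controls. The highest CUS value, 52.48, lay just under the lowest control value, 52.54. Its log2 difference was -0.26 (95% interval -0.50 to -0.02, limma adjusted p = 0.322), and -0.13 without CUS replicate 3 or -0.16 with the length and GC trend removed. Pcdhgc3 had 28.7, 28.4 and 27.8 FPKM in CUS, against 30.3, 32.9 and 32.7 FPKM in controls, a log2 difference of -0.17 (95% interval -0.32 to -0.02, limma adjusted p = 0.307), and -0.11 with the length and GC trend removed. Its CUS values were close together and all below the controls. Pcdhga12, the last gamma A gene before the C-type genes, had 7.08, 6.10 and 5.60 FPKM in CUS against 7.16, 8.05 and 7.86 FPKM in controls, and its log2 difference was -0.28 (adjusted p = 0.289 by limma), or -0.16 with library quality weights. Pcdhgc4 had 5.60, 5.67 and 4.16 FPKM in CUS, against 5.26, 5.02 and 5.74 FPKM in controls, and its groups overlapped.

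The alpha array summed to 37.5, 36.2 and 33.5 FPKM in CUS, against 37.4, 38.1 and 34.5 FPKM in controls, and the groups overlapped. Pcdhac1 was the alpha member with a p under 0.05 whose groups stood apart, with 1.5, 1.36 and 1.03 FPKM in CUS against 1.66, 1.79 and 1.63 FPKM in controls. Its log2 difference was -0.30 (limma adjusted p = 0.302), and -0.18 both without CUS replicate 3 and with library quality weights. Pcdhac2 had 14.5, 14.1 and 13.7 FPKM in CUS, against 14.4, 14.1 and 13.6 FPKM in controls. Its log2 difference was 0.01, or -0.06 on the TPM scale and 0.08 with the length and GC trend removed, with a 95% interval of -0.12 to 0.13 as reported. This was the narrowest interval of all members. It overlaps the interval of Pcdhgc5, -0.50 to -0.02, and neither is adjusted for the number of genes.

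The beta array summed to 31.6, 25.4 and 26.4 FPKM in CUS, against 29.4, 29.0 and 29.3 FPKM in controls. The CUS libraries spread on both sides of the controls, which were close together (SD 3.30 and 0.241 FPKM). At a limma p under 0.05, 3 beta members were lower in CUS and 1 was higher, each without overlap. Pcdhb8 had 0.590, 0.670 and 0.590 FPKM in CUS against 0.770, 1.16 and 0.930 FPKM in controls (log2 difference -0.37, limma adjusted p = 0.289). Pcdhb22 had 1.44, 1.25 and 1.07 FPKM against 1.99, 1.46 and 1.78 FPKM in controls (log2 difference -0.35, limma adjusted p = 0.295), and Pcdhb16 had 0.490, 0.420 and 0.430 FPKM against 0.670, 0.660 and 0.650 FPKM in controls (log2 difference -0.29, limma adjusted p = 0.309). At this low level the difference of Pcdhb16 was -0.48 with a pseudocount of 0.1. Pcdhb3 went the other way, with 1.54, 1.49 and 1.39 FPKM in CUS against 1.06, 0.950 and 1.29 FPKM in controls (log2 difference 0.31, limma adjusted p = 0.305). Groups did not overlap for 8 of the 53 members, 1 higher and 7 lower in CUS, while this held for 19.7% of all kept genes, 12.1% higher and 7.60% lower.

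**Figure D3:**
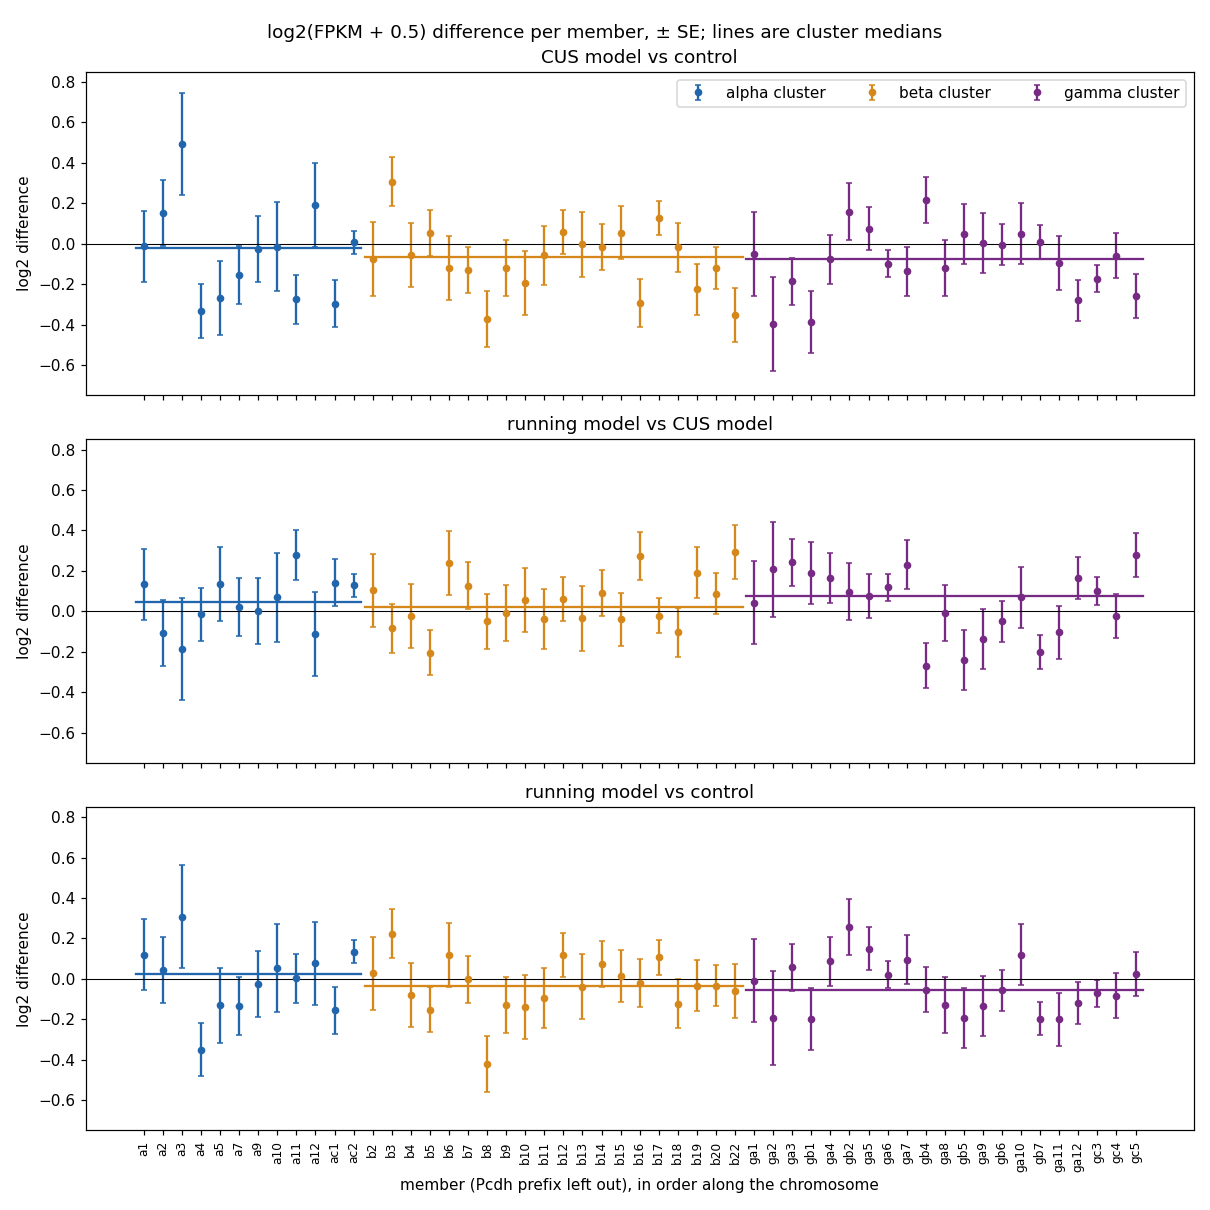
Difference in log2(FPKM + 0.5) of each kept member, with its SE, in the 3 comparisons, in order along the chromosome. Horizontal lines are medians of the alpha, beta and gamma arrays, which lie between -0.08 and 0.08, and no member passed the adjusted threshold.

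The second question was what running did in stressed mice. None of the 53 members passed in running against CUS, where limma called 0.00714% of all kept genes, and the smallest adjusted p of a member was 0.159. Without adjustment 4 members were higher and 2 lower in running at a limma p under 0.05, or 6 of 53, while 23.5% of all kept genes were, 7.74% higher and 15.7% lower. Differences above 0 were seen in 8 of 12 alpha, 10 of 20 beta and 13 of 21 gamma members, with medians of 0.04, 0.02 and 0.08, against -0.03 over all kept genes. The CUS libraries enter this comparison and that with controls with opposite signs, so opposite differences in both are not separate observations. Without CUS replicate 3, 1 member was higher and 1 lower at a limma p under 0.05, where 18.5% of all kept genes had one, and the gamma median was -0.01. The split was 10 higher and 0 lower on the TPM scale, where 24.1% of all kept genes had a limma p under 0.05. On that scale 17 of 20 beta members were above 0, and the median over all kept genes was 0.06. With the length and GC trend removed it was 0 higher and 2 lower, where 18.4% of all kept genes had a limma p under 0.05.

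Markers of inhibitory neurons, 6 of 6 kept and 0 called, summed to 666 to 722 FPKM in running against 768 to 867 FPKM in CUS, without overlap. Most of that sum was Sst, with 495, 451 and 441 FPKM in running against 547, 563 and 653 FPKM in CUS. The median log2 difference over the 6 markers was 0.04, and Gad2 had 28.2, 29.7 and 30.1 FPKM in running against 26.7, 25.7 and 24.7 FPKM in CUS. Their part in the results that follow was not tested.

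The gamma sum was 167, 181 and 192 FPKM in running, against 170, 179 and 147 FPKM in CUS. These values overlapped, with means of 180 ± 12.8 and 165 ± 16.6 FPKM (SD, n = 3 each) and a log2 ratio of 0.12, or 0.05 without CUS replicate 3. Pcdhgc5 had 54.1, 54.1 and 61.8 FPKM in running, against 49.3, 52.5 and 38.8 FPKM in CUS, and all running values were higher. Its log2 difference was 0.28 (95% interval 0.04 to 0.52, limma adjusted p = 0.159), and 0.15 without CUS replicate 3. It was also 0.15 once each library's trend with transcript length and GC was taken out. Pcdhgc3 had 27.5, 32.0 and 32.0 FPKM in running, against 28.7, 28.4 and 27.8 FPKM in CUS, and the groups overlapped.

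A gamma B gene went the other way. Pcdhgb4 had 2.16, 2.04 and 2.49 FPKM in running, against 2.93, 2.55 and 2.88 FPKM in CUS, which gave a log2 difference of -0.27 (adjusted p = 0.182 by limma). The highest running value was below the lowest CUS value. Gamma B genes summed to 19.1, 22.6 and 23.1 FPKM in running against 23.5, 23.1 and 20.9 FPKM in CUS, which overlapped.

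In the alpha array the C-type sum of Pcdhac1 and Pcdhac2 was 17.5, 16.3 and 16.9 FPKM in running, against 16.0, 15.4 and 14.7 FPKM in CUS. Pcdhac2 had 16.0, 15.0 and 15.4 FPKM in running, against 14.5, 14.1 and 13.7 FPKM in CUS, with a log2 difference of 0.13 (adjusted p = 0.202 by limma) with no overlap. With the length and GC trend removed it was 0.0045, and on the TPM scale 0.23. Pcdha11 had 2.28, 2.33 and 2.41 FPKM in running, against 2.08, 1.77 and 1.69 FPKM in CUS, with a log2 difference of 0.28 (adjusted p = 0.203 by limma). The sum over alpha 1 to 12, at 21.3, 18.8 and 20.9 FPKM in running and 21.5, 20.8 and 18.8 FPKM in CUS, overlapped.

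In the beta array the sums were 30.4, 27.3 and 28.7 FPKM in running, against 31.6, 25.4 and 26.4 FPKM in CUS, with overlap. Pcdhb16 had 0.780, 0.570 and 0.590 FPKM in running, against 0.490, 0.420 and 0.430 FPKM in CUS, with a log2 difference of 0.27 (adjusted p = 0.197 by limma). Both groups lay near the filter of 0.5 FPKM, and a pseudocount of 0.1 gave 0.44. Groups did not overlap for 8 members, 7 higher and 1 lower in running, while this held for 24.9% of all kept genes, 8.99% higher and 15.9% lower.

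**Figure D4:**
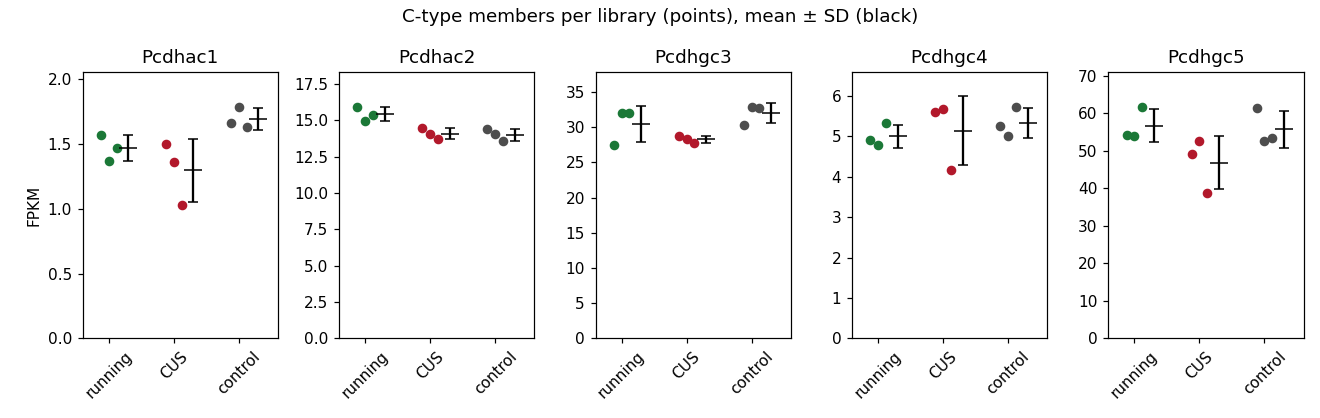
FPKM of the 5 C-type members in each library, from 0, for running, CUS and control (points), with mean and SD in black. Pcdhgc5 is lowest in CUS replicate 3 at 38.8 FPKM, and Pcdhac2 lies at 15.0 to 16.0 FPKM in running and at 13.6 to 14.5 FPKM in the other groups.

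Running against the unstressed control likewise gave 0 members passing, where limma called 0.0214% of all kept genes, and the smallest adjusted p of a member was 0.292. Without adjustment 1 member was higher and 3 were lower, while 11.6% of all kept genes had a limma p under 0.05, 5.15% higher and 6.47% lower. Medians were 0.02 in the alpha, -0.03 in the beta and -0.06 in the gamma array, against -0.02 over all kept genes. Sums overlapped in all 3 arrays, for example 167, 181 and 192 FPKM in running against 186, 184 and 180 FPKM in controls for gamma. Groups did not overlap for 7 members, 3 higher and 4 lower, while this held for 22.4% of all kept genes, 10.5% higher and 11.9% lower. Markers of oligodendrocytes, 7 of 7 kept and 0 called, summed to 542 to 613.1 FPKM in running against 613.4 to 1147 FPKM in controls, and those of oligodendrocyte precursors to 56.1 to 57.6 FPKM in running against 62.5 to 75.1 FPKM in controls. Their part in the results was not tested.

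Pcdhac2 was the 1 member that was higher at a limma p under 0.05, with 16.0, 15.0 and 15.4 FPKM in running against 14.4, 14.1 and 13.6 FPKM in controls. Its log2 difference was 0.13 (95% interval 0.01 to 0.26, limma adjusted p = 0.396), or 0.09 with the length and GC trend removed, with all running libraries above all controls. Serotonergic cell body markers were near 0 in every library, as given above. Pcdhb8 had 0.730, 0.490 and 0.530 FPKM in running, against 0.770, 1.16 and 0.930 FPKM in controls, with a log2 difference of -0.42 (adjusted p = 0.292 by limma). Pcdha4 had 1.85, 1.99 and 2.23 FPKM in running against 3.07, 2.42 and 2.67 FPKM in controls (log2 difference -0.35, limma adjusted p = 0.349). Pcdhgb7 had 3.43, 3.86 and 3.42 FPKM in running against 4.07, 4.04 and 4.37 FPKM in controls (log2 difference -0.20, limma adjusted p = 0.405). Each of these 3 had no overlap between the groups.

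The size of change that these libraries leave room for can be read from the 95% intervals of the limma fit, which are not adjusted for the number of genes. The median half-width over the 53 members was 0.29 on the log2 scale, from 0.12 in Pcdhac2 to 0.56 in Pcdha3. The whole interval lay within a 1.5-fold change of FPKM + 0.5 in either direction, which for genes near 0.5 FPKM is a wider change in FPKM itself, for 45 members in CUS against control, 49 in running against CUS and 49 in running against control. It lay within a 2-fold change of FPKM + 0.5 for 52, 53 and 53 members. The exception was Pcdha3, with 2.05, 1.72 and 1.37 FPKM in CUS against 1.13, 1.76 and 0.530 FPKM in controls, a member named here after its values were seen. Alpha members were the least precise, with a median within-group SD of 0.22 on the log2 scale, against 0.14 in the beta and 0.17 in the gamma array. Over all kept genes the median was 0.11. At a mean of 1 to 5 FPKM it was 0.20 over 32 members and 0.15 over 3539 genes, and whether the split of constant exon fragments moves with this was not tested.

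**Figure D5:**
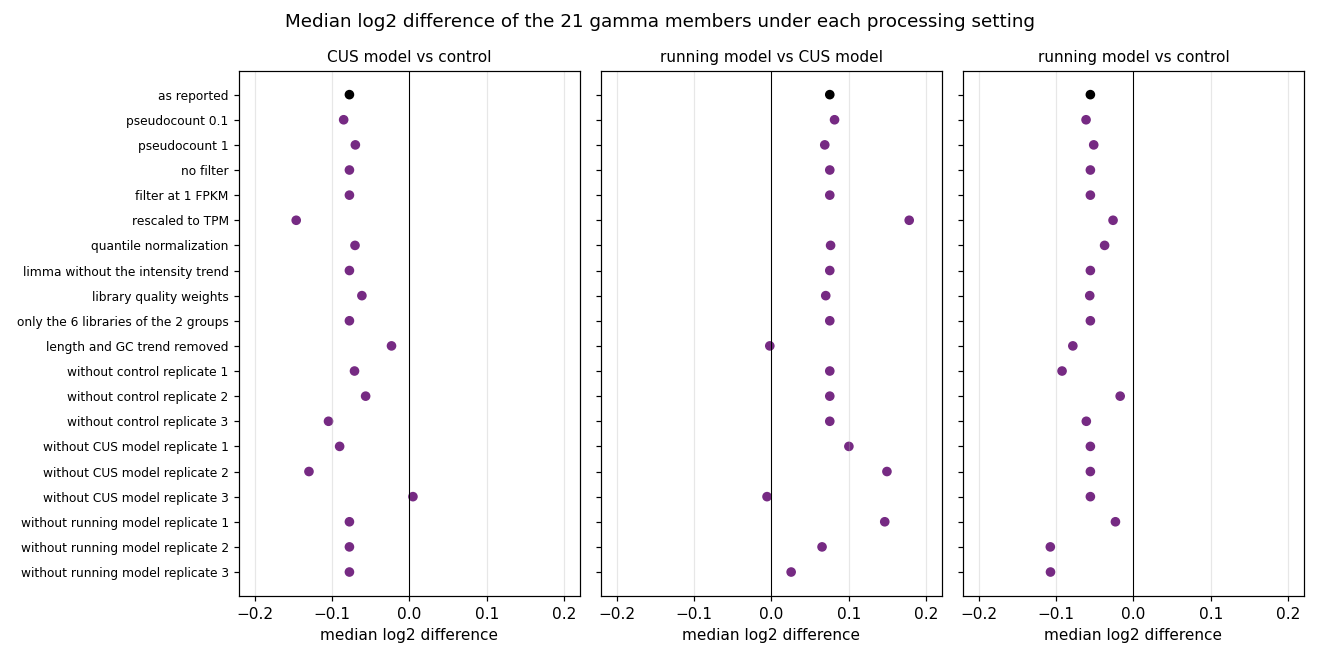
Median log2 difference of the kept gamma members in each comparison under the reported setting (black) and 19 other settings. Without CUS replicate 3 the median is 0.00 in CUS against control and -0.01 in running against CUS, and 0.08 in size in both as reported.

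Settings that called many genes still called no member. With library quality weights limma called 15.5% of all kept genes in running against CUS and 0 of the 53 members, the smallest adjusted p among them being 0.0509 in Pcdhga3. Without CUS replicate 2 it called 10.8% of all kept genes and again 0 members, with a smallest adjusted p of 0.0568. Across 19 other settings and the 3 comparisons 0 members were called. CUS replicate 3 held the lowest value of 9 of the 21 gamma members. Without it 12 gamma members were above 0 and 9 below in CUS against control.

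Genes that act with the clusters were described from lists. Of 26 chromatin regulators of the arrays, such as CTCF, cohesin subunits, DNA methyltransferases and Tet enzymes, 24 were kept and limma called 0 in any of the 3 comparisons. Before adjustment, limma p-values under 0.05 fell on 3 higher and 1 lower in running against CUS, 1 higher and 1 lower in CUS against control, and 2 higher in running against control. Over all kept genes 23.5%, 14.7% and 11.6% had one in these comparisons, in the same order. The median of the chromatin regulators was 0.08 in running against CUS, with 17 above and 7 below 0, and -0.01 in CUS against control. Over all kept genes it was -0.03, with 42.2% above 0, and 0.02. Tet3, which oxidises methylated cytosine, had 5.05, 6.77 and 5.81 FPKM in running against 4.43, 4.42 and 3.65 FPKM in CUS (log2 difference 0.45, limma adjusted p = 0.0797). Tet2 had 5.07, 4.80 and 4.39 FPKM in CUS against 5.73, 5.98 and 6.06 FPKM in controls (log2 difference -0.29, limma adjusted p = 0.253). Ctcf itself had 20.8, 21.3 and 21.3 FPKM in running against 19.5, 19.1 and 19.0 FPKM in controls (log2 difference 0.14, limma adjusted p = 0.415).

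All 28 partners and effectors of the proteins were kept, among them the kinases Ptk2 and Ptk2b, the WAVE complex and the sheddase Adam10, and limma called 0. Unadjusted p-values under 0.05 fell on 3 higher and 4 lower in running against CUS, 2 higher and 2 lower in CUS against control, and 2 higher in running against control. Shares over all kept genes were 23.5%, 14.7% and 11.6%, in that order. Prkca, a protein kinase C that acts on the actin regulator Marcks, had 28.6, 30.0 and 34.3 FPKM in running against 23.8, 24.1 and 20.9 FPKM in CUS (log2 difference 0.42, limma adjusted p = 0.0776). Non-clustered protocadherins lie outside the 3 arrays, and 11 of 12 were kept with 0 called by limma. Unadjusted p-values were under 0.05 for 3 higher and 1 lower in running against CUS, for 1 lower in CUS against control, and for 1 higher and 1 lower in running against control. The same shares over all kept genes apply here. Pcdh1 had 40.3, 45.7 and 44.9 FPKM in running against 31.3, 39.6 and 25.0 FPKM in CUS (log2 difference 0.46, limma adjusted p = 0.0937). Pcdh9 had 15.3, 13.4 and 11.9 FPKM in CUS against 17.0, 16.2 and 18.1 FPKM in controls (log2 difference -0.33, limma adjusted p = 0.253).

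Other cadherin superfamily genes of neurons also gave 0 calls by limma among 21 kept genes, with 3 lower in CUS than in controls and 3 higher in running than in CUS at an unadjusted p under 0.05. Over all kept genes 5.79% and 7.74% were. In CUS against control 19 of the 21 were below 0, with a median of -0.12, and in running against CUS 17 were above 0, with a median of 0.13, the CUS libraries being shared by both. Most of the 21 had their lowest value in CUS replicate 3, the library that stood apart. Clstn1 had 299 FPKM there, against 376 and 374 FPKM in the other CUS libraries. Some, such as Cdh20 and Fat3, were lowest in another library. Medians of this list without CUS replicate 3 were not computed. Over all kept genes 55.9% were above 0 in CUS against control, with a median of 0.02, and 42.2% in running against CUS, with a median of -0.03. Genes next to the arrays on chromosome 18 had medians of the other sign, 0.10 in CUS against control and -0.09 in running against CUS, over 14 kept genes with 0 called by limma, while unadjusted p-values under 0.05 fell on 1 higher and 4 lower in running against CUS. In that comparison 7.74% of all kept genes were higher and 15.7% lower at such a p. Among the neighbouring genes Ndufa2, a subunit of mitochondrial complex I, had 68.6, 60.2 and 58.9 FPKM in running against 80.1, 71.5 and 101 FPKM in CUS (log2 difference -0.41, limma adjusted p = 0.0925), with its highest value in CUS replicate 3.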

How the data were processed

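RNA sequencing libraries of mouse mPFC were analysed, 3 per group. The authors deposited one table of FPKM per gene, which is what was used. Per the submitters' processing notes, Bowtie2 2.2.5, RSEM 1.2.12, DESeq2 1.4.5 and the mm10 build were used, with no role given, and per the labels' protocols poly(A) RNA was taken with oligo(dT) beads and copied from random hexamers. FPKM keep no read depth, so depth per library and counting error are unknown.

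Of 65389 rows, the 14013 that reached 0.5 FPKM in 3 or more libraries were kept. limma 3.58.1 in R 4.3.3 was fitted to log2(FPKM + 0.5) over all 9 libraries with an intensity trend, 6 residual degrees of freedom and 3 contrasts. P-values were adjusted over all kept genes by Benjamini-Hochberg, with a threshold of 0.05. The fit was also run on simulated data with independent genes. The planted changes were larger than the member differences given here, so that run does not bear on differences of this size. Members named in the text were the C-type genes, the 3 highest means per array, those next to the filter, and those with an unadjusted p under 0.05 and no overlap between groups, and genes of other lists were taken from the 2 smallest p-values per list and comparison. Members and gene lists were chosen with earlier results of these data known. Tried besides were pseudocounts, filters, TPM and quantile scaling, no trend, library quality weights, 6 libraries only, removal of a length and GC trend (98.24% of kept genes had values), and leaving out each library.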

Additional observations from a re-analysis of the deposited data

How the results depend on the processing

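No member was called by limma in any comparison under the 19 other settings. No difference given for a member with an unadjusted p under 0.05 changed sign under these settings, while some array medians did, as did the difference of Pcdhac2 in CUS against control, 0.01 as reported. It was -0.059 with TPM, -0.020 with quantile scaling, 0.081 with length and GC removed, and -0.015 (without control replicate 3) to 0.026 without single libraries, with -0.013 without CUS replicate 1. No paired analysis was possible because the labels give no replicate numbers, and those used here were assigned in accession order. Over all genes, calls in CUS against control were 0 with a filter at 1 FPKM (1969 genes at an unadjusted p under 0.05), 8 with quality weights and 1 to 6 without single libraries (6 without control replicate 2). In running against CUS they were 0 without a filter (3474 at an unadjusted p under 0.05), 0 with length and GC removed (2574), 3 with TPM, 2 with quantile scaling, 2178 with weights, 15 with 6 libraries, and 0 to 1518 without single libraries (1518 without CUS replicate 2, 21 without control replicate 2). In running against control they were 1 without a filter, 7 without a trend, 147 with weights, 24 with 6 libraries, 8 with length and GC removed, and 1 to 10 without single libraries. The beta median in CUS against control was -0.16 with TPM, 0.0043 with quantile scaling, 0.0089 with weights, and -0.15 (without CUS replicate 1) to -0.014 without single libraries. The alpha median was -0.13 (without control replicate 3) to -0.020 without single libraries. With length and GC removed it was 0.019, with 7 alpha members above 0 and 5 below. In running against CUS, TPM gave medians of 0.15 (alpha), 0.12 (beta) and 0.18 (gamma), against 0.062 over all kept genes, and a summed alpha ratio of 0.16. The alpha median was -0.045 with length and GC removed, and the beta median -0.014 to 0.11 (without CUS replicate 1) with single libraries left out. In running against control the alpha median was -0.079 without control replicate 3 and 0.12 without control replicate 2. The causes were not tested.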
